A study of Mus musculus with 8 samples.

Results

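The CCN genes encode secreted matricellular proteins, which sit in the extracellular matrix and signal from it rather than building it. The family was followed by 5 names, the older symbols Ctgf, Cyr61, Nov, Wisp1 and Wisp2 of the genes now called Ccn2, Ccn1, Ccn3, Ccn4 and Ccn5. All 5 were among the 12528 genes of the expression table and all passed the filter on low values. The members were picked by name and not by a cut-off on a measured value, although earlier results of these data were known.

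The libraries came from immortalized mouse embryonic fibroblasts (MEFs) prepared from WT and Cav1KO littermates. Cav1KO cells lack caveolin-1, the main structural protein of caveolae, which are small invaginations of the plasma membrane that flatten under tension. Both genotypes were seeded at low confluence on stiff or soft polyacrylamide hydrogels, and polyadenylated RNA was collected 24 h later and sequenced as 60-base reads. Each genotype and substrate gave 1 of 4 groups, with 2 libraries in each, and groups are named by both (WT stiff, for example). The number of independent lines behind each genotype is not given in the sources used here, so a difference between genotypes and a difference between lines cannot be told apart. Nothing states that the libraries of a group came from separate cultures, so p-values measure only the spread between these samples.

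CCN proteins are built from shared modules that resemble parts of insulin-like growth factor binding proteins, von Willebrand factor and thrombospondin, and most also carry a carboxy-terminal cystine knot, which Wisp2 lacks. They bind integrins, heparan sulphate proteoglycans and growth factors, and they are cut by extracellular proteases. In fibroblasts Ctgf and Cyr61 are classical targets of YAP and TAZ, cofactors that enter the nucleus and bind TEAD factors in spread, tensed cells, and both are induced quickly by serum and TGF-beta. Wisp1 was first described as a Wnt-induced gene, whereas Nov and Wisp2 have often been found to oppose growth or Ctgf.

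Of the 5 members, 1 (Cyr61) was matched in a RefSeq table of promoters. Its upstream sequence is shown because TEAD factors recognise the letters CATTCC and Cyr61 is among the genes most often read as a YAP output. The 250 bases before the RefSeq start lie on the minus strand of GRCm38.p6 at chr3:145649986-145650235. Capitals mark CATTCC and a TATA box, TATAAA.
Cyr61: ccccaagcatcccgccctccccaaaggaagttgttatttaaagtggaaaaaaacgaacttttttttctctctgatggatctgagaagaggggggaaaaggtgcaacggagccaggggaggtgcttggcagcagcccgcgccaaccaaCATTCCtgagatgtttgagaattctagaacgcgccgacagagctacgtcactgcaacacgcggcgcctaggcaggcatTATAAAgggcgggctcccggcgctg
The CATTCC match lay 103 to 98 bases before the start, and the TATAAA match lay 25 to 20 bases before it. On both strands, CATTCC was present in 12.6% and TATAAA in 13.0% of 27025 promoters of the same length. The core of a cyclic AMP response element, TGACG, was found on the opposite strand 58 to 54 bases before the start, a match present in 17.9% of promoters. The letters TGACTCA (AP-1, in 4.43% of promoters), CAGAC (SMAD, 42.1%), CTTTGA (TCF, 14%) and the CArG box (SRF, 1.40%) were not in this window. These matches describe the sequence and no binding was measured.

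The labels and cell type were checked first. Cav1 was at 950 to 1157 CPM (read counts scaled for depth and between libraries by the TMM method) in the 4 WT libraries and at 0.0523 to 0.411 CPM in the 4 Cav1KO libraries. Reads summed over the genes of the expression table ranged from 17089836 to 19944952 per library, and 3 reads corresponded to 0.151 to 0.181 CPM. Of 11 fibroblast markers 9 were measured, and their summed level ranged from 8198 to 8223 CPM on stiff and 10546 to 10729 on soft gels in WT cells, against 4057 to 4804 and 10292 to 10462 in Cav1KO cells. None of the 7 epithelial, 5 endothelial and 5 skeletal muscle markers was among the genes analysed. Of 7 macrophage markers 2 were measured, without Ptprc, Csf1r or Adgre1, and summed to 24.9 to 40.4 CPM in WT and 92.8 to 103.6 CPM in Cav1KO libraries. The 3 measured adipocyte markers of 5 summed to 12.6 to 15.0 CPM in WT and 103.5 to 160.2 CPM in Cav1KO libraries, with Adipoq and Plin1 not among the genes analysed. Fabp4 made most of the Cav1KO sums, at 104 and 156 CPM on stiff and soft gels, against 0.357 and 1.99 CPM in WT cells. The other 2 were lower in Cav1KO cells on both substrates (limma adjusted p under 0.05). The 2 measured chondrocyte markers of 5 summed to 153.0 to 205 CPM in WT and 54.0 to 111 CPM in Cav1KO libraries, and Col2a1 was at 36.3 CPM in WT stiff against 0.0588 CPM in Cav1KO stiff libraries. The 2 measured osteoblast markers of 5 summed to 54.4 to 65.6 CPM in WT and 31.8 to 43.1 CPM in Cav1KO libraries. Of these 2, 1 was higher and 1 lower in Cav1KO cells on each substrate by the same test. The 9 mitochondrial transcripts summed to 680 to 881 CPM on stiff and 1159 to 1853 on soft gels in WT cells, against 1593 to 2047 and 1940 to 1992 in Cav1KO cells. Their part in the CCN results was not tested.

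The family split into 2 opposed sets. Ctgf, Cyr61 and Wisp1 were highest in WT cells on the stiff substrate, and Nov and Wisp2 were lowest there. Nov had the widest range, from 9.21 ± 0.0314 CPM in WT stiff (SD, n = 2) to 1120 ± 22.4 CPM in Cav1KO soft libraries, a ratio of 122 that ranked 93 of 12494 genes tested. The ratio of highest to lowest group was 15.1 for Wisp2, 4.54 for Ctgf, 2.94 for Wisp1 and 1.88 for Cyr61. In bulk RNA, fewer cells making a transcript and less of it per cell cannot be told apart.

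**Figure D1:**
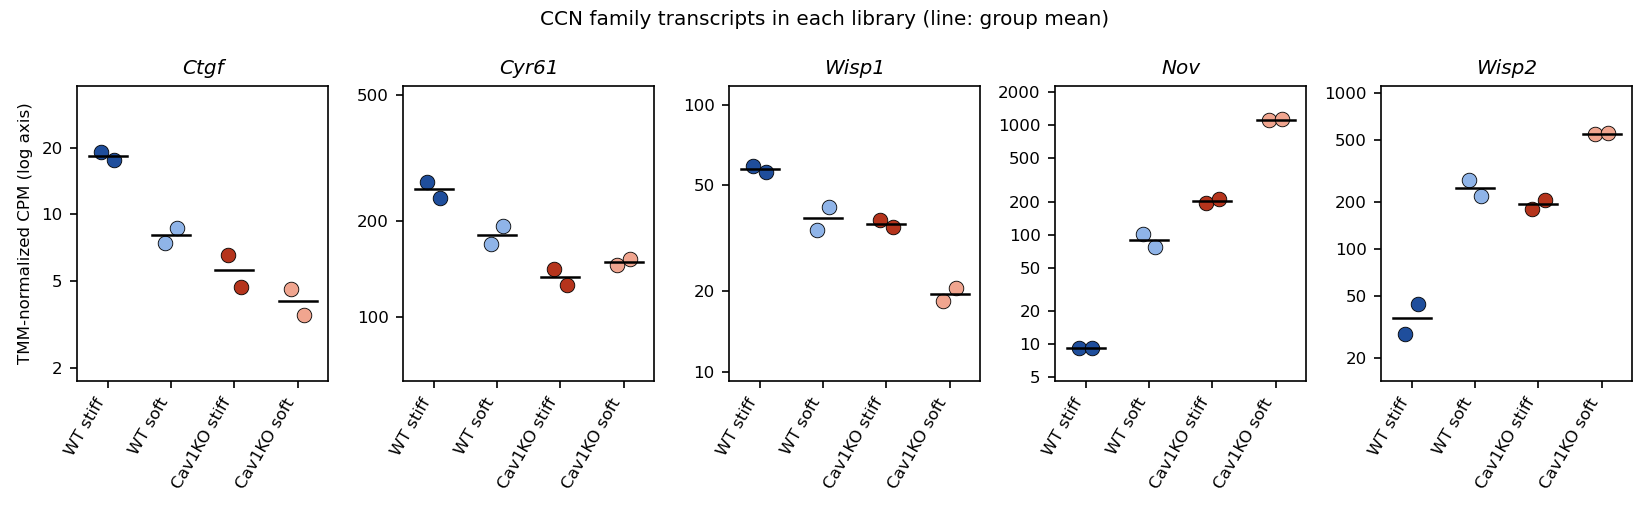
Level of each CCN transcript in every library, in TMM-normalized CPM on a log axis that differs between panels. Points are libraries, 2 per group, and lines are group means. Ctgf, Cyr61 and Wisp1 are highest in WT stiff and Nov and Wisp2 are highest in Cav1KO soft libraries.

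Compared per kb of exon, the family also changed its main product. Cyr61 made up 76.2% of the summed CCN level per kb in WT stiff cells, 34.6% in WT soft cells, and 26.9% and 9.79% in the Cav1KO cells on stiff and soft gels. Wisp2 was the most abundant member in WT soft cells (49.7%) and Cav1KO stiff cells (41.0%). Nov rose from 1.96% in WT stiff to 51.7% in Cav1KO soft cells, where it was at 390 ± 7.80 CPM per kb and ranked 146 of 12451 genes with a known exon length. Ctgf was a minor transcript throughout, at 6.43 ± 0.388 CPM per kb in WT stiff and 1.42 ± 0.273 in Cav1KO soft cells, or 3.93% and 0.188% of the family. Wisp1 stayed between 3.50 and 10.3 CPM per kb. The summed family level was 164 ± 4.91 CPM per kb on the stiff and 259 ± 16.5 on the soft substrate in WT cells, against 246 ± 7.41 and 755 ± 13.6 in Cav1KO cells.

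**Figure D2:**
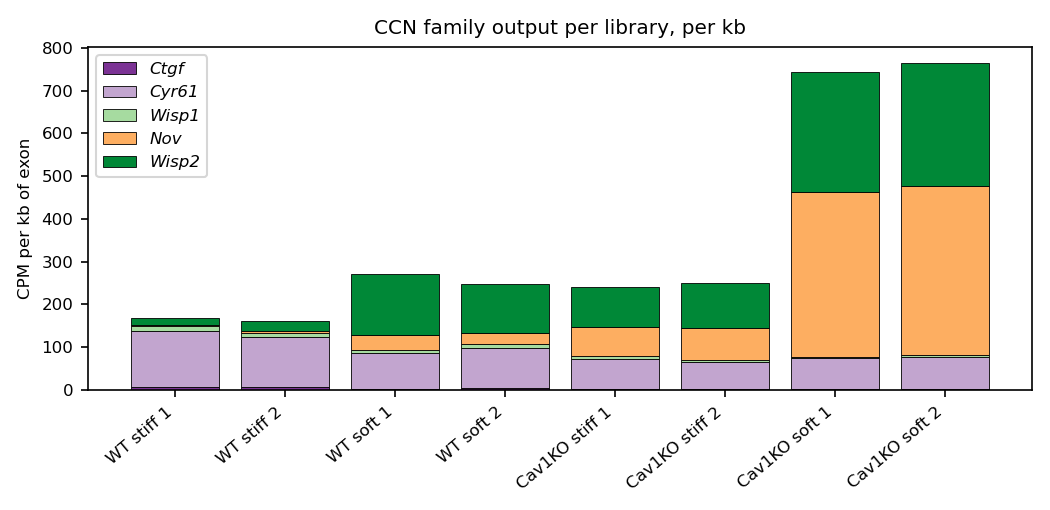
CPM per kb of exon for the 5 CCN transcripts, stacked for each of the 8 libraries. Cyr61 fills most of the WT stiff bars, and Nov and Wisp2 fill most of the Cav1KO soft bars, which reach 745 and 764 CPM per kb against 160 and 167 in WT stiff libraries.

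The first comparison was the response to stiffness in WT cells. All 5 members passed the test (limma on log2(CPM + 1), Benjamini-Hochberg adjusted over 12494 genes), 3 higher on the stiff substrate and 2 lower. Their stiff and soft libraries did not overlap, which adds no support here because the share of all genes without overlap was not counted. Over all genes, 22.1% were called higher and 26.3% lower in this comparison. The median log2 fold change was 0.47 over the members and -0.02 over all genes tested.

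Ctgf, a promoter of matrix deposition on chromosome 10 (24595442 to 24598683), was at 19.2 and 17.6 CPM in stiff and at 7.43 and 8.71 CPM in soft libraries of WT cells. Both stiff libraries lay above both soft libraries. It rose by 1.10 on the log2 scale (SE 0.18, limma adjusted p = 0.00138), the 136th largest rise of 12494. Of its possible 60-base reads, 16.2% also fit Gm15270, an antisense transcript that overlaps it. Whether counting used the strand is not given in the sources used here, so reads that fit both cannot be told apart. Gm15270 itself was not among the genes of the expression table.

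Cyr61, an integrin ligand that promotes adhesion and migration, lies on chromosome 3 (145646976 to 145649981). It was at 266 and 237 CPM in stiff and at 169 and 193 CPM in soft libraries of WT cells. The groups were apart, although the gap was the narrowest in proportion among the members, at 1.39 times on average. Cyr61 rose by 0.47 (SE 0.10, limma adjusted p = 0.00390).

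Wisp1, a Wnt target linked to fibroblast growth on chromosome 15 (66891320 to 66923201), was at 58.7 and 56.0 CPM on the stiff and 34.0 and 41.5 CPM on the soft substrate. It rose by 0.60 (SE 0.11, limma adjusted p = 0.00284). No library of one substrate reached the range of the other.

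Nov, also on chromosome 15 (54745702 to 54754039), was at 9.19 and 9.23 CPM in stiff and at 101 and 77.0 CPM in soft libraries of WT cells. The mean was 9.64 times higher on the soft substrate. The log2 fold change was -3.12 (SE 0.12, limma adjusted p = 1.07e-05), the 17th largest fall of 12494 genes.

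Wisp2, on chromosome 2 (163820861 to 163833146), was at 28.6 and 44.3 CPM in stiff and at 275 and 220 CPM in soft libraries of WT cells. Its WT stiff libraries differed from each other more, for their mean, than those of any other member and group, with a coefficient of variation of 30.6%. The distance between substrates was far larger, with a log2 fold change of -2.76 (SE 0.18, limma adjusted p = 4.09e-05), the 36th largest fall.

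The same comparison was made in Cav1KO cells. Wisp1 was higher on the stiff substrate and Nov and Wisp2 were lower, while Ctgf and Cyr61 did not pass the threshold. Over all genes 27.9% were called higher and 28.2% lower, and the median was -0.16 over the members and -0.02 over all genes tested. No member's stiff and soft libraries overlapped, including those of Ctgf and Cyr61. The share of all genes without such overlap was not counted, so nothing is read from it.

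Nov was at 193 and 211 CPM in the Cav1KO stiff and 1104 and 1136 CPM in the Cav1KO soft libraries, a log2 fold change of -2.47 (SE 0.12, limma adjusted p = 8.14e-06). Wisp2 was at 181 and 206 CPM on the stiff and 544 and 554 CPM on the soft substrate, a log2 fold change of -1.50 (SE 0.18, limma adjusted p = 2.27e-04). Both were lower on the stiff substrate, as in WT cells. Wisp1 was at 37.0 and 34.7 CPM on the stiff and 18.5 and 20.5 CPM on the soft substrate, a rise of 0.85 (SE 0.11, limma adjusted p = 3.49e-04).

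Ctgf was at 6.53 and 4.66 CPM in the Cav1KO stiff and 4.60 and 3.50 CPM in the Cav1KO soft libraries. Its log2 difference was 0.38 (95% interval -0.03 to 0.79, limma adjusted p = 0.105). These levels rested on 68 to 111 reads per library, which limits the precision of Ctgf more than that of the other members. The value depended on single libraries in both directions. It was 0.59 without Cav1KO stiff replicate 2 (limma adjusted p = 0.0329) and 0.54 without Cav1KO soft replicate 1 (limma adjusted p = 0.0869), but 0.17 without Cav1KO stiff replicate 1 (limma adjusted p = 0.470) and 0.22 without Cav1KO soft replicate 2 (limma adjusted p = 0.450). With median centring it was 0.47 (limma adjusted p = 0.0437) and with quantile normalization 0.67 (limma adjusted p = 0.00834).

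Cyr61 was at 141 and 126 CPM in the Cav1KO stiff and 146 and 152 CPM in the Cav1KO soft libraries. The difference of -0.16 (95% interval -0.38 to 0.06, limma adjusted p = 0.186) pointed the other way from WT cells. Under quantile normalization it was -0.30 (limma adjusted p = 0.0331).

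**Figure D3:**
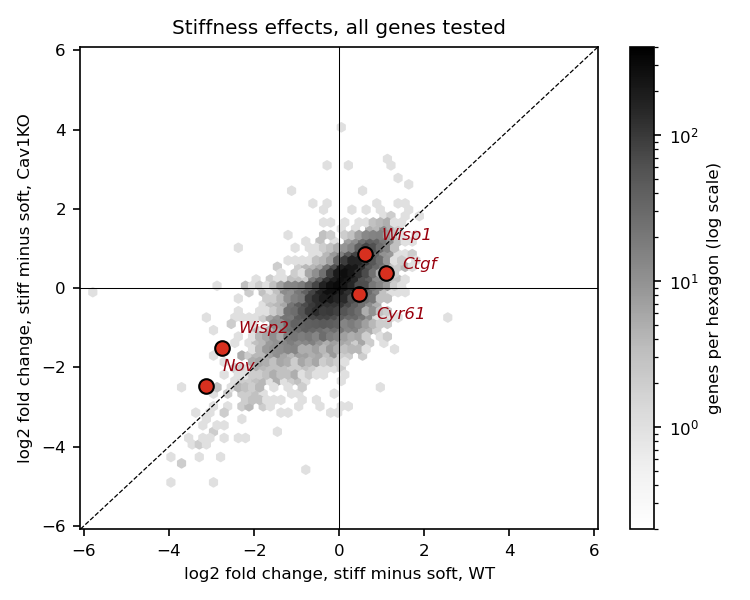
Log2 fold change from soft to stiff substrate in WT cells (horizontal) against Cav1KO cells (vertical) for all 12494 genes, shaded by the number of genes on a log scale, with the CCN members in red and the line of equal effects dashed. Nov and Wisp2 lie at the lower left, at -3.12 and -2.76 in WT cells, and Cyr61 lies on opposite sides of 0 in WT and Cav1KO cells, with the Cav1KO value not past the threshold.

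The difference between the stiffness effects of WT and Cav1KO cells was then tested as an interaction. It passed the threshold for Cyr61 in the positive direction (effect more positive in WT cells) and for Nov and Wisp2 in the negative direction (fall deeper in WT cells). Over all genes 4.47% were called positive and 6.0% negative. The median was -0.25 over the members and -0.07 over all genes tested.

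For Cyr61 the difference was 0.63 (SE 0.14, limma adjusted p = 0.0310). For Wisp2 it was -1.25 (SE 0.26, limma adjusted p = 0.0300), and for Nov it was -0.66 (SE 0.17, limma adjusted p = 0.0434). The Nov value moved with the pseudocount, and with a pseudocount of 5 it was -0.27 (limma adjusted p = 0.245).

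None of these 3 calls held through the removal of each library in turn. Cyr61 missed the threshold without WT stiff replicate 1 (0.55), WT soft replicate 1 (0.54), Cav1KO stiff replicate 2 (0.55), Cav1KO soft replicate 1 (0.66) or Cav1KO soft replicate 2 (0.60). Wisp2 missed it without those libraries (-0.94, -1.09, -1.16, -1.24 and -1.27) and without WT soft replicate 2 (-1.41). Nov missed it without the same 5 libraries (-0.66, -0.47, -0.59, -0.64 and -0.68) and without WT stiff replicate 2 (-0.66). The sign did not change in any of these fits.

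The Ctgf interaction was 0.72 (95% interval 0.14 to 1.30, limma adjusted p = 0.0913). It passed without Cav1KO stiff replicate 1, at 0.93 (limma adjusted p = 0.0285), and with a pseudocount of 5, at 0.62 (limma adjusted p = 0.0426). For Wisp1 the value was -0.25 (95% interval -0.62 to 0.12, limma adjusted p = 0.289), an interval that leaves room for a difference of either sign.

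The genotypes were compared on each substrate. On the stiff substrate all 5 members differed, Nov and Wisp2 higher in Cav1KO cells and Ctgf, Cyr61 and Wisp1 lower. Over all genes 25.0% were called higher and 26.6% lower. The median was -0.66 over the members and -0.03 over all genes tested.

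Nov stood at 202 ± 13.0 CPM in Cav1KO stiff against 9.21 ± 0.0314 CPM in WT stiff cells, or 21.9 times higher. Its log2 fold change of 4.31 (SE 0.12, limma adjusted p = 3.46e-08) was the 32nd largest rise of 12494. Wisp2 stood at 194 ± 17.3 against 36.5 ± 11.2 CPM, a log2 fold change of 2.41 (SE 0.18, limma adjusted p = 1.35e-05). In these stiff libraries all 9 mitochondrial transcripts were also called higher in Cav1KO cells, and mt-Co2 was at 0.0285 CPM in WT stiff against 27.7 CPM in Cav1KO stiff libraries.

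Ctgf stood at 5.60 ± 1.32 CPM in Cav1KO stiff against 18.4 ± 1.11 CPM in WT stiff cells, with a log2 fold change of -1.57 (SE 0.18, limma adjusted p = 1.49e-04). Cyr61 stood at 134 ± 10.9 against 252 ± 20.2 CPM, with a log2 fold change of -0.91 (SE 0.10, limma adjusted p = 8.88e-05). Wisp1 stood at 35.9 ± 1.61 against 57.4 ± 1.89 CPM, with a log2 fold change of -0.66 (SE 0.11, limma adjusted p = 0.00139). For each of the 5 members both Cav1KO libraries lay on the same side of both WT libraries, and how often this held over all genes was not counted.

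On the soft substrate the members were called in the same directions, 2 higher and 3 lower in Cav1KO cells, against 24.1% higher and 29.9% lower over all genes. The median was -0.28 over the members and -0.03 over all genes tested. This comparison shares no library with the one on the stiff substrate. Both took their spread from the same fit of all libraries, so they are not independent. On either substrate a difference between genotypes and a difference between lines cannot be told apart. Nov stood at 1120 ± 22.4 CPM in Cav1KO soft against 88.8 ± 16.7 CPM in WT soft cells, a log2 fold change of 3.65 (SE 0.12, limma adjusted p = 7.68e-08). Wisp2 stood at 549 ± 7.03 against 248 ± 38.9 CPM, a log2 fold change of 1.15 (SE 0.18, limma adjusted p = 9.08e-04). Fabp4, an adipocyte marker, was at 156 CPM in the same Cav1KO soft libraries and at 1.99 CPM in WT soft libraries. It was the only 1 of the 3 adipocyte markers tested that was called higher there. The other 2 were called lower, and the list median was -1.46.

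Ctgf stood at 4.05 ± 0.780 CPM in Cav1KO soft against 8.07 ± 0.901 CPM in WT soft cells (log2 fold change -0.85, SE 0.18, limma adjusted p = 0.00411). Wisp1 stood at 19.5 ± 1.46 against 37.7 ± 5.32 CPM (log2 fold change -0.91, SE 0.11, limma adjusted p = 2.09e-04). Cyr61 showed the smallest genotype difference on the soft substrate, 149 ± 4.28 against 181 ± 16.8 CPM (log2 fold change -0.28, SE 0.10, limma adjusted p = 0.0376). It missed the threshold without WT soft replicate 2 (-0.18, limma adjusted p = 0.212), without Cav1KO soft replicate 1 (-0.25, limma adjusted p = 0.172) or without Cav1KO soft replicate 2 (-0.30, limma adjusted p = 0.101).

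**Figure D4:**
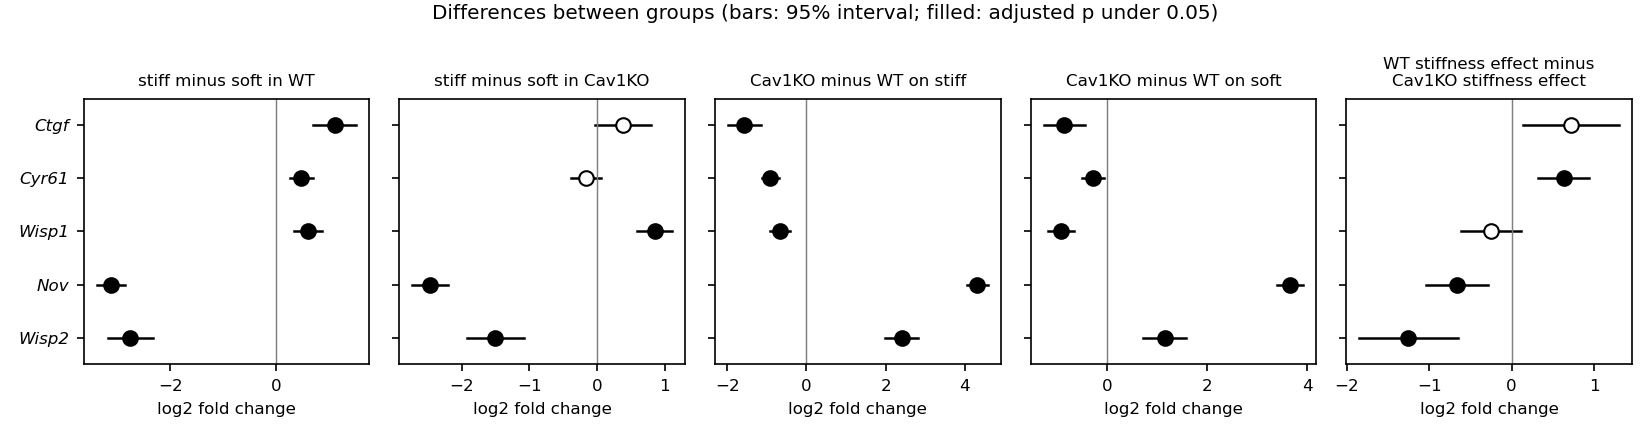
Log2 fold changes of the CCN members in 5 comparisons, with 95% intervals from limma and the horizontal scale differing between panels. Filled points passed an adjusted p of 0.05, and open points did not. The 2 open points in the Cav1KO stiffness panel are Ctgf at 0.38 and Cyr61 at -0.16.

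The order of the 4 groups was examined with a further comparison, Cav1KO stiff against WT soft, chosen after the levels had been seen. Nov was higher in Cav1KO stiff cells (log2 fold change 1.19, limma adjusted p = 3.92e-05), and Ctgf (-0.47, limma adjusted p = 0.0491) and Cyr61 (-0.44, limma adjusted p = 0.00392) were lower. This comparison called 28.9% of all genes higher and 32.0% lower. Wisp1 (-0.06, 95% interval -0.32 to 0.19) and Wisp2 (-0.35, 95% interval -0.77 to 0.07) did not pass.

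Ctgf thus ran from Cav1KO soft through Cav1KO stiff and WT soft to WT stiff, with the first pair not separated by the test. Its middle pair passed only narrowly (limma adjusted p = 0.0491), on 85 to 111 reads in Cav1KO stiff and 123 to 162 in WT soft libraries. Cyr61 ran from Cav1KO stiff through Cav1KO soft and WT soft to WT stiff, again with the first pair not separated. Wisp1 had the order of Ctgf, with its middle pair not separated and overlapping. Nov ran from WT stiff through WT soft and Cav1KO stiff to Cav1KO soft, and every neighbouring pair differed. Wisp2 ran from WT stiff through Cav1KO stiff and WT soft to Cav1KO soft, with its middle pair not separated.

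The partners of CCN proteins were examined as lists, each described by counts and by medians of the log2 fold change, to be read beside the shares and medians of all genes. These shares were 22.1% higher and 26.3% lower for stiffness in WT cells, 27.9% and 28.2% for stiffness in Cav1KO cells, 25.0% and 26.6% for genotype on the stiff substrate, 24.1% and 29.9% for genotype on the soft substrate, and 4.47% positive and 6.0% negative for the interaction. The counts describe the lists, and none was tested against other genes. Of 20 receptors and co-receptors 17 were tested. With stiffness, 1 was called higher and 7 lower in WT cells, and 0 higher and 13 lower in Cav1KO cells (medians -0.18 and -0.59). Between genotypes, 3 were higher and 7 lower in Cav1KO cells on the stiff substrate, and 8 higher and 5 lower on the soft substrate, with medians of -0.15 and 0.16. The test of the interaction passed for 5 receptors, all positive, with a median of 0.35.

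These 5 were Lrp1 (1.60, limma adjusted p = 0.0112), Igf2r (1.16, limma adjusted p = 0.0177), Igf1r (1.12, limma adjusted p = 0.0295), Itga5 (0.76, limma adjusted p = 0.0414) and Lrp6 (0.71, limma adjusted p = 0.0418). In all 5, Cav1KO stiff replicate 2 lay below replicate 1, as at 112 against 173 CPM for Lrp1 and 63.8 against 79.9 CPM for Itga5. Lrp1, an endocytic receptor that binds Ctgf, was at 197 ± 11.2 and 212 ± 19.8 CPM in WT stiff and soft cells and at 143 ± 43.3 and 456 ± 12.6 CPM in Cav1KO stiff and soft cells. Itga5, part of the fibronectin receptor, was 170 ± 21.5 CPM in WT stiff and 71.9 ± 11.3 CPM in Cav1KO stiff cells. Itgb3, part of the vitronectin receptor that Cyr61 and Ctgf bind, was 5.34 ± 0.101 CPM in WT stiff and 1.53 ± 0.0772 CPM in Cav1KO stiff cells (log2 fold change -1.32, limma adjusted p = 8.09e-04). Fgfr2, a fibroblast growth factor receptor, was higher in Cav1KO cells on the stiff substrate by 2.11 (limma adjusted p = 6.11e-06).

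Of 16 ligand and matrix partners 11 were tested. In WT cells 0 were higher and 4 lower with stiffness, and in Cav1KO cells 0 and 8, with medians of -0.29 and -0.85. In Cav1KO against WT cells 3 were higher and 8 lower on the stiff substrate and 4 higher and 3 lower on the soft substrate, with medians of -0.86 and 0.01. An interaction passed for 5, with a list median of 0.53, and 1 of these calls (Igf2) rested on levels near the detection floor, taken as 3 reads, or 0.151 to 0.181 CPM by library.

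Fn1, which encodes fibronectin, had an interaction of 1.66 (limma adjusted p = 0.0136), with 1420 ± 146 and 1739 ± 222 CPM in WT stiff and soft cells against 800 ± 247 and 3030 ± 83.3 CPM in Cav1KO stiff and soft cells. Hspg2 (perlecan, 1.23), Tgfb1 (0.65) and Bgn (biglycan, 0.53) were also positive. Igf2, a growth factor that CCN proteins can bind through their amino-terminal module, was at 0.261 ± 0.128 and 1.17 ± 0.137 CPM in WT stiff and soft cells and at 122 ± 30.4 and 487 ± 1.27 CPM in Cav1KO stiff and soft cells. Its interaction was 1.23 on the log2(CPM + 1) scale, where the added 1 shrinks changes at such WT levels, and -0.10 on recovered reads (edgeR adjusted p = 0.912), so no difference in response was read from it. Bmp4, a growth factor that Ctgf binds, had a log2 fold change of 3.43 from WT to Cav1KO cells on the stiff substrate (limma adjusted p = 1.95e-06). Dcn, the proteoglycan decorin, fell with stiffness in WT cells (log2 fold change -1.20, limma adjusted p = 3.67e-05).

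Of 14 proteases able to act on CCN proteins or their surroundings 10 were tested. With stiffness, 1 was higher and 8 lower in WT cells, and 1 higher and 9 lower in Cav1KO cells (medians -0.82 and -1.54). Between genotypes, 4 were higher and 5 lower in Cav1KO cells on the stiff substrate and 7 higher and 1 lower on the soft substrate, with medians of 0.01 and 0.63. The interaction was positive for 5 and negative for 1, with a median of 0.74. Mmp14, a membrane-anchored collagenase, was at 69.9 and 118 CPM in WT stiff and soft cells and at 49.0 and 261 CPM in Cav1KO stiff and soft cells (interaction 1.64, limma adjusted p = 0.00540). Interactions also passed for Mmp9 (1.74), Bmp1 (0.99), Plat (0.76) and Mmp2 (0.72). Mmp2, the gelatinase that Mmp14 activates, fell with stiffness by 1.21 in WT and by 1.92 in Cav1KO cells on the log2 scale. Mmp3, stromelysin, was the negative call (-0.90, limma adjusted p = 0.0350), at 0.0821 and 1.76 CPM in WT stiff and soft cells and 60.0 and 81.8 CPM in Cav1KO stiff and soft cells. With so few reads in WT stiff cells its size depended on the scale, at 0.02 with a pseudocount of 5 and -3.90 on recovered reads (edgeR adjusted p = 0.00845). Adamts1, a secreted metalloprotease, fell with stiffness in WT cells (log2 fold change -1.66, limma adjusted p = 0.00123). Htra1, a secreted serine protease, was lower in Cav1KO cells on the stiff substrate (log2 fold change -3.32, limma adjusted p = 1.03e-07).

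Regulators upstream of the CCN genes were described in the same way. Of 13 YAP, TAZ and TEAD regulators, 2 were higher and 4 lower with stiffness in WT cells, against 2 higher and 5 lower in Cav1KO cells (medians 0.02 and -0.15). Cav1KO cells had 2 higher and 5 lower on the stiff and 5 higher and 2 lower on the soft substrate, with medians of -0.06 and 0.04. Wwtr1, which encodes TAZ, was at 155 ± 4.95 CPM in WT stiff and 346 ± 11.8 CPM in Cav1KO stiff cells (log2 fold change 1.15, limma adjusted p = 2.97e-06). Tead4, a DNA-binding partner of YAP, followed the order of Ctgf, at 19.2 and 12.7 CPM on stiff and soft gels in WT cells and at 8.65 and 6.29 CPM in Cav1KO cells. Vgll4, a TEAD competitor of YAP, fell with stiffness in WT cells (log2 fold change -0.71, limma adjusted p = 2.05e-04). Interactions passed for Amotl1 (1.59, limma adjusted p = 0.0393) and Tead2 (-0.57, limma adjusted p = 0.0310), and the list median was 0.18.

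Among 20 further YAP readouts, 7 were higher and 5 lower with stiffness in WT cells, against 2 higher and 6 lower in Cav1KO cells (medians 0.11 and -0.05). In Cav1KO cells 1 was higher and 11 lower on the stiff substrate and 5 higher and 10 lower on the soft substrate, with medians of -0.40 and -0.22. Ankrd1, a cardiac ankyrin repeat protein often read beside Ctgf, was at 26.9 and 13.4 CPM on stiff and soft gels in WT cells and at 8.70 and 3.32 CPM in Cav1KO cells. Unlike Ctgf, it passed the stiffness test in Cav1KO cells (1.17, limma adjusted p = 1.41e-04). Whether the Cav1KO effects of Ankrd1 and Ctgf differ was not tested. The interaction was called for Rbms3 (0.92), Nuak2 (0.82) and Igfbp3, and its median was 0.19. For Igfbp3, at 409 and 631 CPM in WT stiff and soft but 0.257 and 0.154 CPM in Cav1KO stiff and soft cells, the Cav1KO levels were near the detection floor and the interaction on recovered reads did not pass (edgeR adjusted p = 0.315).

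Of 8 SRF and MRTF regulators, 3 were higher and 0 lower with stiffness in WT cells, against 2 higher and 2 lower in Cav1KO cells (medians 0.37 and -0.11). In Cav1KO cells 1 was higher and 5 lower on the stiff and 3 higher and 3 lower on the soft substrate, with medians of -0.51 and 0.31. Srf itself was at 119 ± 4.36 CPM on the stiff and 86.2 ± 2.92 CPM on the soft substrate in WT cells (log2 fold change 0.46, limma adjusted p = 0.00107). Actb, a cytoplasmic actin, rose by 0.51 (limma adjusted p = 0.00585). The interaction was called for Rock1 (1.46, limma adjusted p = 0.0481) and Mkl2 (0.90, limma adjusted p = 0.0424), with a list median of 0.32.

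Of 12 TGF-beta regulators, 3 were higher and 4 lower with stiffness in WT cells, against 2 higher and 7 lower in Cav1KO cells (medians -0.25 and -0.75). In Cav1KO cells 1 was higher and 10 lower on the stiff and 2 higher and 7 lower on the soft substrate, with medians of -0.57 and -0.35. The 1 that was higher on the stiff substrate was Tgfbr1, a TGF-beta receptor, at 139 ± 16.3 CPM in Cav1KO stiff and 43.2 ± 1.86 CPM in WT stiff cells. The ligand Tgfb2 fell with stiffness in WT and in Cav1KO cells, with log2 fold changes of -1.47 in WT and -1.71 in Cav1KO cells. The interaction was called for Smad3 (0.70), Tgfb1 (0.65), Ski (0.49) and Tgfbr1 (-0.56), with a list median of 0.36.

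Of 13 Wnt regulators 10 were tested, and 0 were higher and 3 lower with stiffness in WT cells, against 0 higher and 9 lower in Cav1KO cells (medians -0.31 and -0.61). In Cav1KO cells 2 were higher and 2 lower on the stiff and 4 higher and 2 lower on the soft substrate, with medians of -0.08 and 0.29. Dkk3, a secreted protein related to Wnt antagonists, was at 28.5 ± 1.72 CPM in WT stiff and 0.110 ± 0.155 CPM in Cav1KO stiff cells (log2 fold change -4.74, limma adjusted p = 6.74e-08). The interaction was called for Lrp6, given above with the receptors, and for Dkk3, with a list median of 0.41. The Dkk3 call was not read as a difference in response, because Cav1KO levels (0.110 and 0.467 CPM on stiff and soft gels) were near the detection floor and its sign turned between the log2(CPM + 1) scale (-0.89) and recovered reads (0.65, edgeR adjusted p = 0.554).

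**Figure D5:**
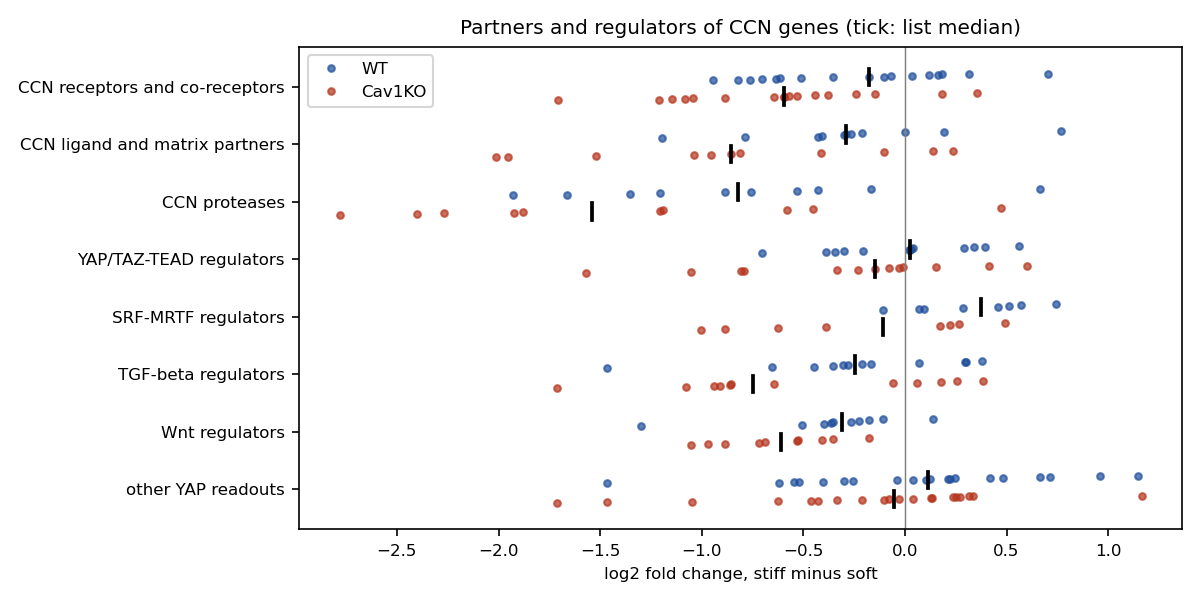
Log2 fold change from soft to stiff substrate for each tested gene of 8 lists of CCN partners and regulators, in WT (blue) and Cav1KO (red) cells, with the list median as a black tick. The medians of the receptors, matrix partners and proteases are -0.18, -0.29 and -0.82 in WT and -0.59, -0.85 and -1.54 in Cav1KO cells.

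Genes with the most similar pattern were sought among 10063 genes with a mean of at least 5 CPM, by Pearson's r of log2(CPM + 1) over the 8 libraries. These libraries form 4 groups of 2, so a high r reflects mainly a shared order of group means, and no test was made. For Ctgf they were Pak2 (r = 0.996), Mib1 (0.990) and Lsg1 (0.989), and for Cyr61 Mapkap1 (0.990), Brd7 (0.990) and Ehbp1l1 (0.986). For Wisp1 they were Cstf3, Rnf220 and Aurka (0.996 each). For Nov they were Cacna1g, Igfbp2 and Map1lc3b (0.998 each), and for Wisp2 Tcta (0.995), Pdlim2 (0.994) and Galm (0.994). Igfbp2 was at 39.3 ± 3.37 and 108 ± 8.17 CPM on stiff and soft gels in WT cells and at 155 ± 13.5 and 305 ± 8.04 CPM in Cav1KO cells, the same order as Nov over a narrower range. Pak2 was at 147 and 108 CPM in WT and at 90.8 and 81.2 CPM in Cav1KO cells on the same gels, which is the order of Ctgf.

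The nearest measured genes on the chromosome did not share the genotype pattern of Nov. Enpp2, which encodes autotaxin and begins 84.9 kb from Nov, was 130 ± 0.694 CPM on the stiff and 426 ± 40.3 on the soft substrate in WT cells, against 70.0 ± 8.22 and 368 ± 9.38 in Cav1KO cells. Tnfrsf11b, osteoprotegerin, 467 kb away on the other side, was lower in Cav1KO cells on the stiff substrate, with a log2 fold change of -2.21 (limma adjusted p = 3.60e-07). Both were lower on the stiff substrate in WT cells, at -1.71 and -1.70. Enpp1, 39.2 kb from Ctgf, was at 16.4 CPM in WT stiff and 1.39 CPM in Cav1KO stiff cells. Ndrg1, 6.12 kb from Wisp1, moved against Wisp1 in WT cells, with a log2 fold change of -1.18 with stiffness (limma adjusted p = 3.84e-05).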

How the data were processed

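RNA-seq of 8 libraries was analysed. The submitters' processing notes name CASAVA 1.8.2, cutadapt, RSEM 1.2.3 and GRCm38. The authors deposited a signal per gene, TMM-normalized CPM. The values were whole multiples of 1 read within 0.01 read for 100% of values, so reads were recovered. No sample column was left out. Genes with at least 1 CPM in 2 libraries (12494 of 12528) were tested with limma 3.58.1 (trend) on log2(CPM + 1) over all groups, with 4 residual degrees of freedom and Benjamini-Hochberg adjustment at 0.05. Fold changes on this scale understate changes of low genes. Alternatives were edgeR 4.0.16 and DESeq2 1.42.0 on recovered reads (R 4.3.3), pseudocounts of 0.5 and 5, other scalings, no filter, no trend, a replicate block and leaving out each library. The scripts were tested on simulated data. Lengths and coordinates are from GENCODE M21 (GRCm38), which matched 12451 genes. Named list genes were those called in the interaction and the 2 largest called changes in WT stiffness and in genotype on stiff, at a mean of at least 5 CPM. Some of the latter are left out here, and cell type markers are given mainly as sums. Neighbouring genes were named as context. The members and lists were chosen with earlier results of these data known. Intervals cover the spread between libraries, and the number of reads limits Ctgf most.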

Additional observations from a re-analysis of the deposited data

Results flagged for a closer look

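For 3 members the effect of stiffness differed between WT and Cav1KO cells by a direct test of the difference (limma interaction, WT effect minus Cav1KO effect on the log2 scale). For Wisp2 this was -1.25 (adjusted p = 0.0300), with every stiff library below every soft library in both genotypes. For Nov it was -0.66 (adjusted p = 0.0434), with the same order. For Cyr61 it was 0.63 (adjusted p = 0.0310). Both its stiff libraries lay above both soft libraries in WT cells and below them in Cav1KO cells. The Cyr61 stiffness effect in Cav1KO cells did not itself pass the threshold (-0.16, limma adjusted p = 0.186), so no reversed response was read from it. The share of all genes with such an order of libraries was not counted, so the order adds no support to these calls. Summed over the genes of the expression table, the libraries compared held 17089836 to 19944952 reads. These 3 calls were sensitive to the processing. None passed with no mean-variance trend, and none held through the removal of each library in turn. With a pseudocount of 5 the Nov interaction was -0.27 (limma adjusted p = 0.245).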

How the results depend on the processing

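Of 430 alternative values of 25 member results, 395 kept their direction and their side of the threshold, 6 moved past it, 29 no longer passed, and none changed sign. The number of members called was 5 of 5 for stiffness in WT cells and for genotype on the stiff substrate in every alternative run. For genotype on the soft substrate it was 5, and lower with DESeq2, no mean-variance trend or quantile normalization, where Cyr61 did not pass. For stiffness in Cav1KO cells it was 3, 5 with quantile normalization, and above 3 with median centring, where Ctgf also passed. In both comparisons the number of members called also varied with the library left out. For the interaction it was 3, 0 with no mean-variance trend, and 0 to 4 when a library was left out. It was 0 without WT stiff replicate 1, WT soft replicate 1, Cav1KO stiff replicate 2, Cav1KO soft replicate 1 or Cav1KO soft replicate 2. A fit with a library left out has fewer samples. Over all genes, the interaction called 559 positive and 750 negative, against 361 and 541 with edgeR and 314 and 391 with no mean-variance trend, and from 36 and 74 to 1747 and 1689 when a library was left out. Without WT soft replicate 1, stiffness in WT cells called 1707 higher and 2206 lower, against 2763 and 3283. edgeR called 2715 higher and 3219 lower in that comparison. Other scalings turned which direction held more calls. Stiffness in WT cells called 3051 higher and 2898 lower with median centring and 3209 and 2892 with quantile normalization. Stiffness in Cav1KO cells called 3488 higher and 3527 lower, against 3989 and 2960 with median centring and 3826 and 3014 with quantile normalization. Genotype on the stiff substrate called 3127 higher and 3329 lower, against 3423 and 2939 with median centring and 3295 and 3145 with quantile normalization. The interaction called 774 positive and 696 negative with DESeq2. For Cyr61 between genotypes on the soft substrate the adjusted p was 0.0501 with DESeq2, 0.0743 with no mean-variance trend and 0.134 with quantile normalization. The cause was not tested. Replicate numbers mark no shared batch in the labels, and deviations of same-numbered libraries correlated from -0.37 to 0.42 between groups, so the samples were not treated as paired. With a replicate block, the interaction called 2 members, Nov being at -0.66 (limma adjusted p = 0.0512), and the block changed no other call. With the WT soft numbers crossed, an alternative chosen after seeing the data, stiffness in WT cells called 3299 genes higher and 3675 lower. Among the partner and regulator genes named with an interaction, Tgfb1, Ski and Rock1 had edgeR adjusted p = 0.0513, 0.0532 and 0.0550, and Nuak2 a DESeq2 adjusted p = 0.108. How the interactions of partner and regulator genes changed when a library was left out is not reported here. Ctgf, at 68 to 382 reads per library, is the member that depth limits most.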
